A study of Mus musculus with 2 samples.

Results

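The ADAM and ADAMTS genes encode zinc-dependent proteases that act at the cell surface (ADAM, membrane-bound) or in the matrix between cells (ADAMTS, secreted). Members were all listed gene symbols made of Adam or Adamts, digits and at most 1 letter, which leaves out the ADAMTS-like genes. This gave 52 of the 32285 genes listed, 33 ADAM and 19 ADAMTS. Of these, 40 had at least 20 unique molecular identifiers (UMIs) over both libraries and are described below, 21 ADAM and all 19 ADAMTS. The other 12 members had fewer than 20 UMIs, and 6 of them had 0.

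The libraries, titled RP and 377P, were single-cell suspensions of the mouse maxillary periodontium, the tissue that holds the upper teeth in their sockets. They were made with the 10x Chromium 3' v3 chemistry, in which each captured mRNA is counted once by its UMI. The series title speaks of periodontitis resolving in diabetes, but the labels do not say what RP or 377P stands for, which of them, if either, was diabetic or treated, or how many animals each holds, and neither is labelled a control. With 1 library per title there is no replicate, so no p-value is given, all intervals are exact 95% Poisson or binomial intervals that cover counting error only, and each ratio compares the libraries rather than conditions.

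RP held 18112 barcodes with a median of 4144 UMIs, and 377P held 15466 with a median of 5288. After filtering, 16721 cells of RP and 14515 of 377P remained. Before filtering 82 barcode sequences occurred in both libraries, and among the kept cells 69 did. Cells were assigned to classes by marker genes that include no member of the family. The 11 classes with at least 50 cells in each library were used for levels, and the 8 with at least 200 for ratios between libraries. Of the 98 markers of the 11 classes, 95 in RP and 96 in 377P were highest in their own class, and none was at 0 there. The same markers set the classes, so this outcome was largely fixed by the gating and does not test it. The gates left 16.8% of the cells of RP and 29.5% of those of 377P without a class. Levels are counts per 1000000 UMIs of the class (CPM). Transcripts of the gland markers other than keratins appeared in every class, together at 10103 to 21634 CPM in the non-gland classes of RP and 1662 to 3449 CPM in those of 377P, so low levels of gland genes were present outside the gland class.

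ADAM proteases cut membrane-anchored proteins close to the cell surface and so release cytokines, growth factors and adhesion molecules, a process called shedding. ADAMTS proteases carry thrombospondin-type repeats that bind them to the matrix, where separate branches trim procollagens, cleave the large aggregating proteoglycans aggrecan and versican, or act on fibrillin, cartilage oligomeric matrix protein and von Willebrand factor. In the periodontium, matrix turnover and shedding of inflammatory mediators both belong to the tissue's response to bacterial plaque.

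Catalysis needs 3 histidines that hold the zinc ion and a glutamate beside the initial histidine, and whether a member carries these codons separates proteases from adhesion proteins. In the GENCODE vM21 coding sequences, all 19 ADAMTS members and 12 of 21 ADAM members had them in the standard spacing. The 33 bases of the site are shown for members on which the results below turn, with codons for the 3 histidines and the glutamate in capitals. The members chosen are 4 shedding ADAMs of different cell classes, 2 ADAMs of neural cells in which most of these codons have been replaced, and 5 matrix-cleaving ADAMTS of vessels and fibroblasts.
Adam17: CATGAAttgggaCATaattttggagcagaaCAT
Adam8: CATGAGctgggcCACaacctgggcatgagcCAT
Adam12: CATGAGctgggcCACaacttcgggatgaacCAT
Adam28: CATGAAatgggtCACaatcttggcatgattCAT
Adam23: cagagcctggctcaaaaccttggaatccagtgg
Adam22: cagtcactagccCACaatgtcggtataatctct
Adamts1: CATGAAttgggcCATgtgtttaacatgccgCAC
Adamts4: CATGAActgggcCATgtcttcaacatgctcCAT
Adamts9: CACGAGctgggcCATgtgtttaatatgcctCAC
Adamts5: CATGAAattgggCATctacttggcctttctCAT
Adamts2: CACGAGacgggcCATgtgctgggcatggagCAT

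All positions are in GRCm38 (mm10). The Adam17 site is at chr12:21336732-21336764 on the minus strand, the Adam8 site at chr7:139987893-139987925 (minus), the Adam12 site at chr7:133961158-133961190 (minus) and the Adam28 site at chr14:68633167-68633199 (minus). The Adam23 window, placed by alignment of its protein to that of Adam9, is at chr1:63547763-63547795 (plus) and keeps 0 of the 4 codons. The Adam22 window at chr5:8143064-8143096 (minus) keeps 1 of 4. Each of these sites lies within a single coding exon. The ADAMTS sites span an intron and lie at chr16:85799191-85799545 (Adamts1, minus), chr1:171253210-171253915 (Adamts4, plus), chr6:92905285-92908493 (Adamts9, minus), chr16:85878015-85887826 (Adamts5, minus) and chr11:50775403-50776134 (Adamts2, plus), with the intron left out of the sequence shown. An intron splits the site in all 19 ADAMTS members, and in 1 of the 12 catalytic ADAM members, Adam10. The eighth codon of the site encodes glycine in all 12 catalytic ADAM members and in 13 of the 19 ADAMTS members. The other 6 are Adamts1, Adamts4, Adamts8, Adamts9, Adamts15 and Adamts20, which all belong to the proteoglycan-cleaving branch.

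For 26 of the 40 members both libraries gave the same class as the highest, where 56.7% of all 21401 genes with at least 20 UMIs did so. That class was fibroblast for 8 members (5.19% of all genes), perivascular for 5 (5.2%), blood endothelial for 4 (3.35%), lymphatic endothelial for 1 (4.23%), Schwann for 3 (6.9%), neutrophil for 3 (4%) and gland for 2 (5.57%). No member was highest in keratinocytes (6% of all genes), T or NK cells (4.58%), B cells (7.19%) or macrophages (4.52%) in both libraries. Fibroblast, vascular and Schwann classes together held 21 of 40 members, against 24.9% of all genes. Among these 21 were 13 of the 19 ADAMTS members and 8 of the 21 ADAM members.

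A highest class at least 3 times the next in both libraries was found for 8 members, against 9.75% of all genes. These were Adam11, Adam23 and Adamts20 (Schwann), Adamts8 (perivascular), Adamts19 (fibroblast), Adam28 (gland), Adam8 and Adam3 (neutrophil). For Adam3 this rests on 2 UMIs in the neutrophils of each library. For Adamts19 the ratio to the next class was 9.03-fold (1.60 to 359) in RP and 4.45-fold (0.751 to 181) in 377P, where the interval includes 1. Its fibroblast level in 377P, 1.78 CPM, was below what 3 counts would give in lymphatic endothelial cells (3.25 CPM). The same held for Schwann cells (8.62 CPM) and neutrophils (8.95 CPM), so restriction against these 3 classes could not be seen there. At 5 times the next class, 4 members were left, and Adam8, Adam3, Adam28 and Adamts19 no longer passed.

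**Figure D1:**
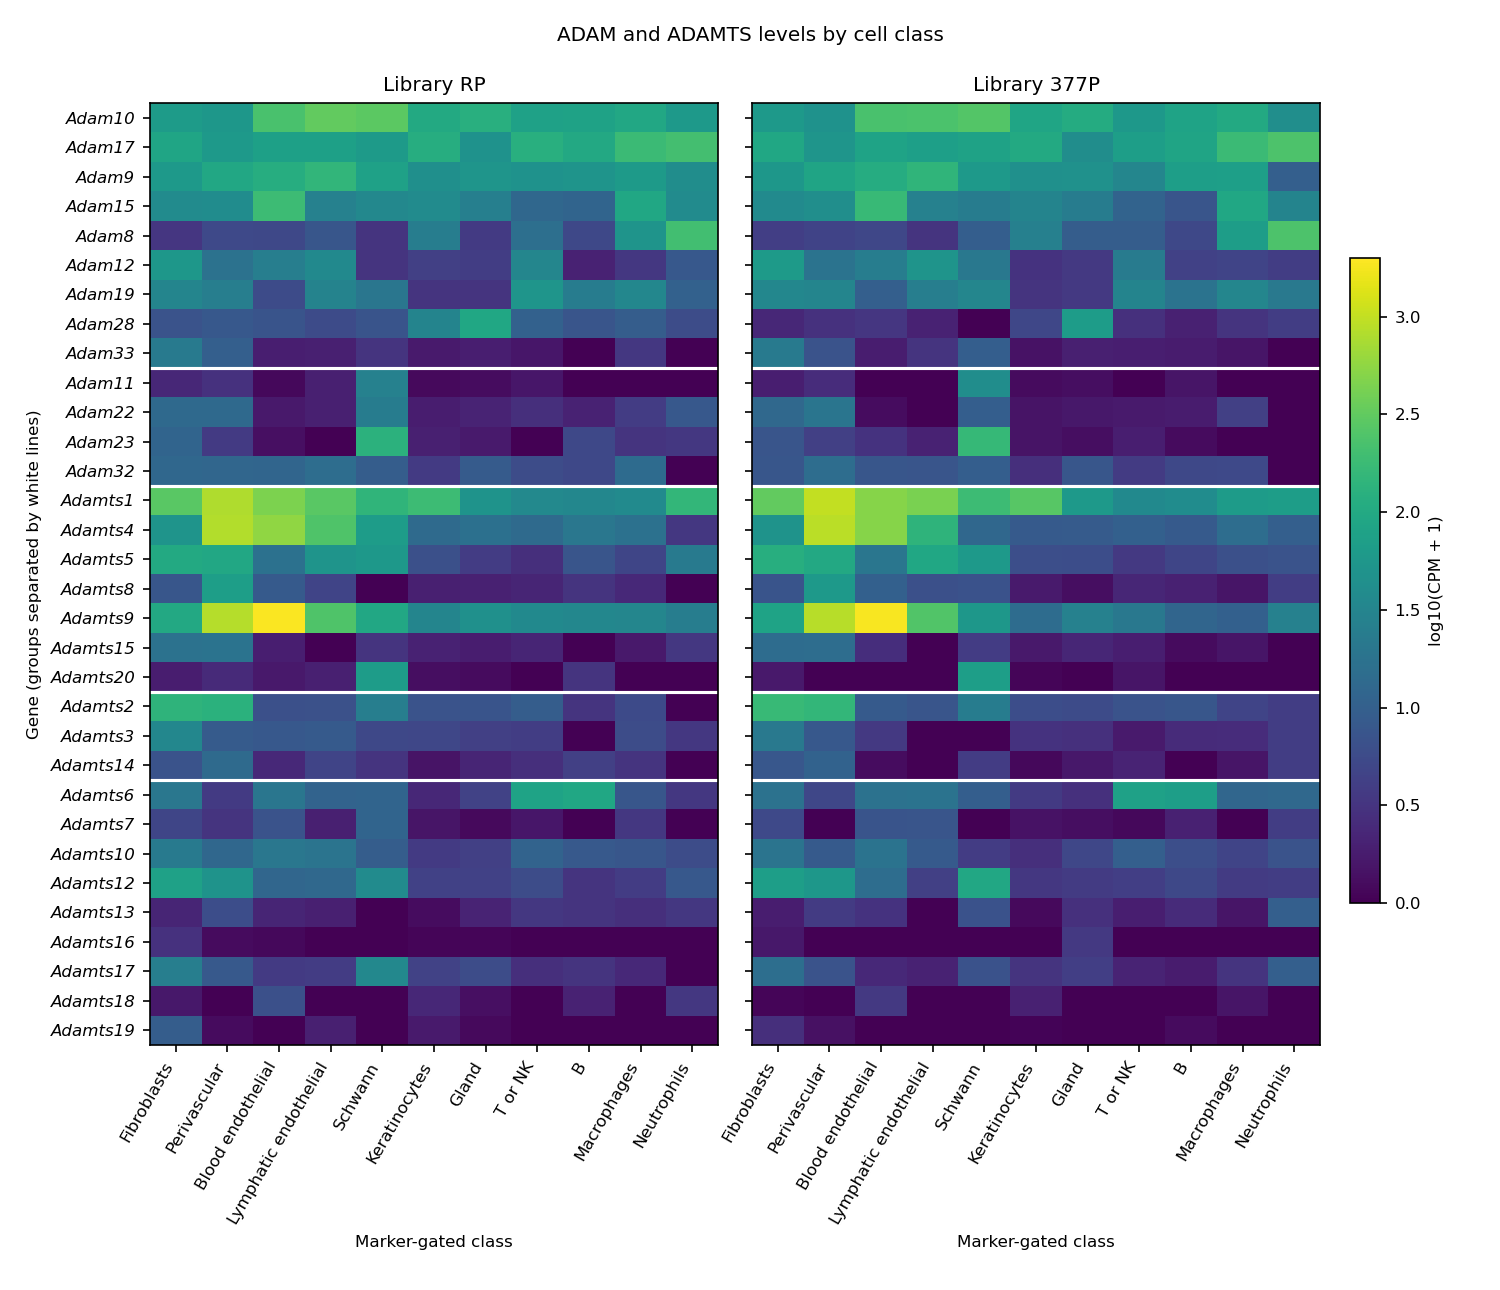
Level of all ADAMTS and selected ADAM members by role, as log10(CPM + 1), in the 11 marker-gated classes of RP (left) and 377P (right). White lines separate catalytic ADAMs, ADAMs without the full set of catalytic codons, proteoglycan-cleaving ADAMTS, procollagen-cleaving ADAMTS and other ADAMTS. In both libraries Adamts1 and Adamts4 are highest in the perivascular column, Adamts9 in the blood endothelial column and Adam23 in the Schwann column.

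Of the proteoglycan-cleaving ADAMTS, all 7 measured members kept the same highest class in both libraries: perivascular for Adamts1, Adamts4, Adamts8 and Adamts15, blood endothelial for Adamts9, fibroblast for Adamts5 and Schwann for Adamts20.

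Adamts9, which cleaves versican and aggrecan (chromosome 6, 92772699 to 92943492, minus strand), stood at 1893 CPM (95% interval 1857 to 1929) in the blood endothelial cells of RP and at 1840 CPM (1795 to 1885) in those of 377P. Perivascular cells followed, with 863 CPM in RP and 868 CPM in 377P. Lymphatic endothelial cells had 248 CPM in RP and 255 CPM in 377P. The step between blood endothelial and perivascular cells was 2.19-fold (2.11 to 2.28) in RP and 2.12-fold (2.02 to 2.23) in 377P, so the order of these classes was the same in both. Within the endothelium it was higher in venous-gated cells (2066.5 CPM in RP, 2012 CPM in 377P) than in arterial-gated cells (1654 CPM in RP, 1316 CPM in 377P), by 1.25-fold (1.18 to 1.33) in RP and 1.53-fold (1.42 to 1.65) in 377P.

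Adamts4, an aggrecan-cleaving enzyme (chromosome 1, 171250421 to 171260637, plus strand), was highest in perivascular cells, at 840 CPM (813 to 869) in RP and 908 CPM (871 to 946) in 377P. Blood endothelial cells had 565 CPM in RP and 506 CPM in 377P. In both libraries these 2 classes stood above lymphatic endothelial cells, at 246 CPM in RP and 137 CPM in 377P, and far above fibroblasts, at 49.4 CPM in RP and 48.6 CPM in 377P. Adamts4 was also higher in the venous than in the arterial gate. The venous-to-arterial ratio was 2.74-fold (2.37 to 3.19) in RP, from 721 CPM and 263 CPM, and 3.45-fold (2.86 to 4.19) in 377P, from 643 CPM and 186 CPM.

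Adamts1, a versican and aggrecan protease (chromosome 16, 85793827 to 85803113, minus strand), was highest in perivascular cells. They had 801 CPM (774 to 829) in RP and 998 CPM (959 to 1038) in 377P, and blood endothelial cells 439 CPM in RP and 506 CPM in 377P. Fibroblasts had 285 CPM in RP and 324 CPM in 377P, and keratinocytes 182 CPM in RP and 279 CPM in 377P. The perivascular level was 1.82-fold (1.73 to 1.92) that of the next class in RP and 1.97-fold (1.85 to 2.10) in 377P. Within the endothelium, Adamts1 was 1.36-fold (1.21 to 1.52) higher in arterial than venous cells in RP and 1.31-fold (1.16 to 1.48) in 377P. In keratinocytes its basal-gate level was 4.36-fold (3.66 to 5.24) the suprabasal level in RP and 3.23-fold (2.77 to 3.78) in 377P. The basal gate was broad, with 3181 cells of RP and 3436 of 377P, against 230 and 86 suprabasal cells. It also took in many cells of clusters led by differentiation genes such as Sprr1a, Lor or Tgm3. By cluster, gated keratinocytes of RP had 256 CPM in cluster 30, 103 CPM in cluster 27 and 112 CPM in cluster 2. Those of 377P had 333 CPM in cluster 7 and 216 CPM in cluster 1.

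**Figure D2:**
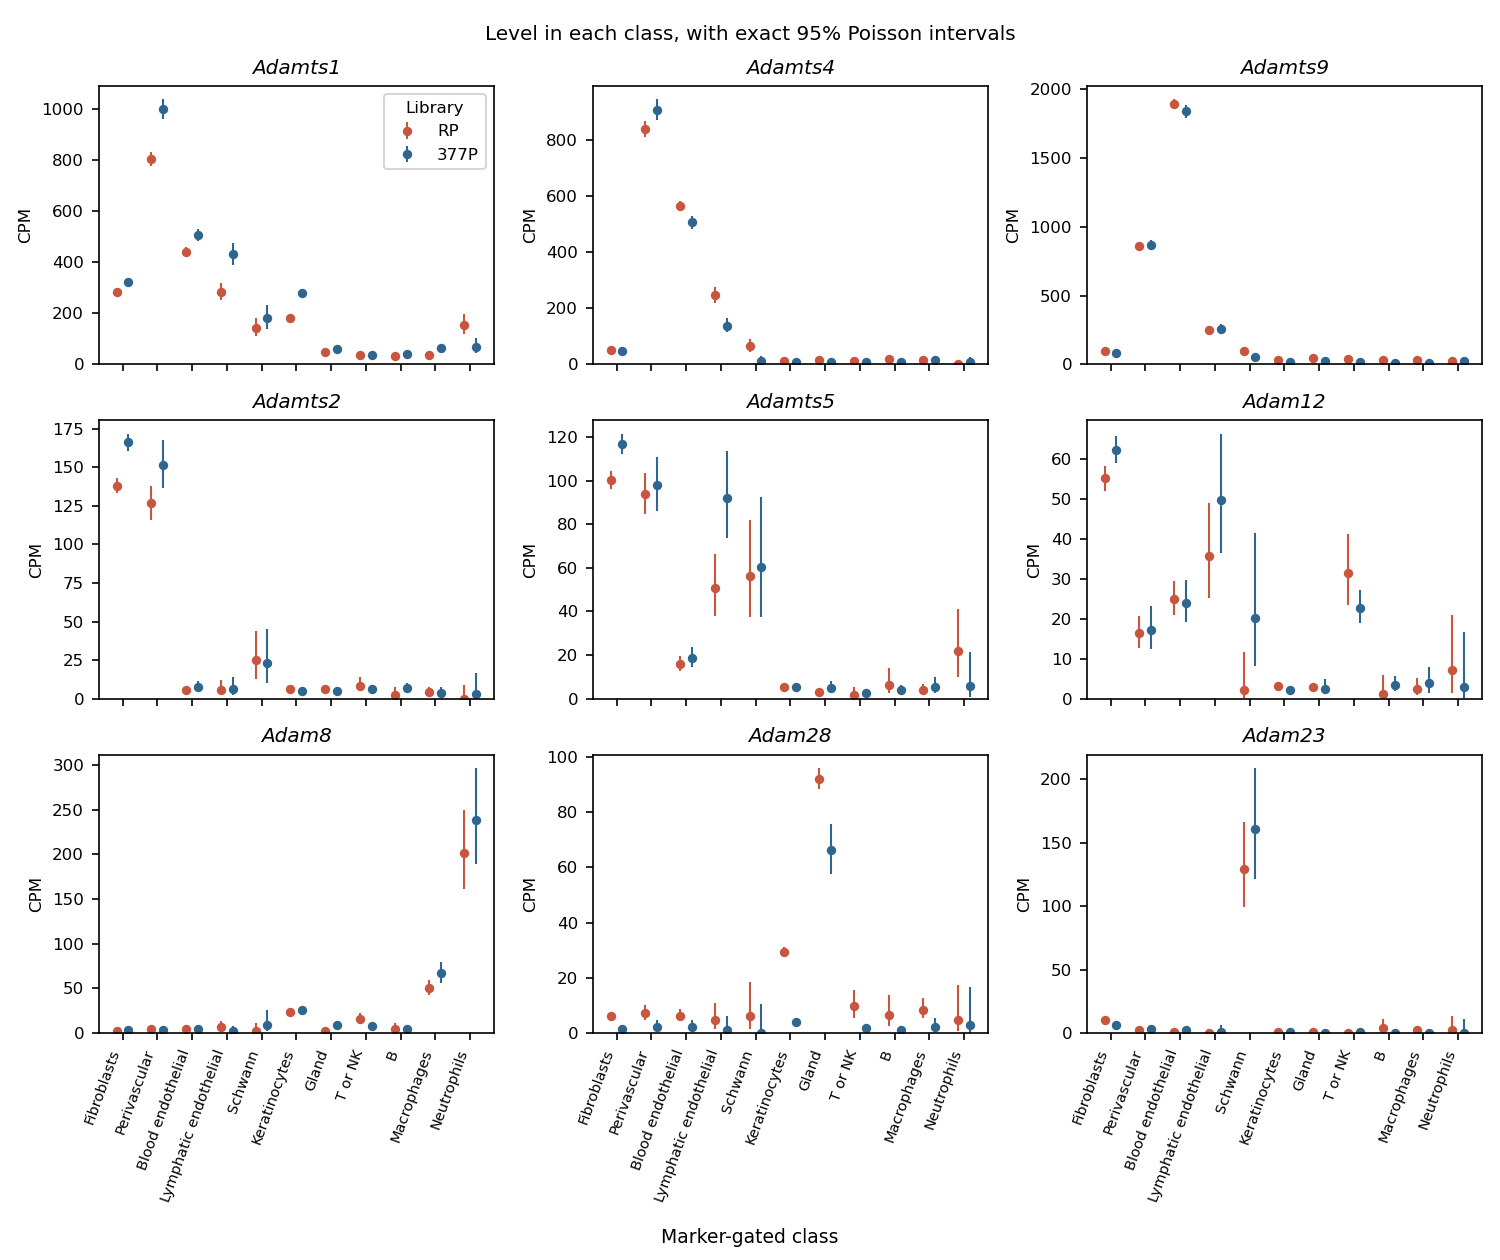
Level (CPM) of 9 members in the 11 classes, RP in red and 377P in blue, with exact 95% Poisson intervals as bars. The vertical axes differ between panels. The highest class is the same in both libraries in each panel, and Adam28 in keratinocytes stands at 29.5 CPM in RP and 3.998 CPM in 377P.

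Adamts8, whose product cleaves aggrecan weakly, stood in perivascular cells at 69.7 CPM in RP and 58.6 CPM in 377P. This was 9.29-fold (6.72 to 13.1) the blood endothelial level in RP and 6.41-fold (4.35 to 9.71) in 377P. It was higher in the smooth muscle gate than in the pericyte gate, by 1.67-fold (1.12 to 2.59) in RP and 2.77-fold (1.46 to 5.93) in 377P. Adamts5, a strong aggrecanase, was shared by fibroblasts (100.2 CPM in RP, 117 CPM in 377P) and perivascular cells (93.7 CPM in RP, 97.7 CPM in 377P), with a ratio of 1.07-fold (0.960 to 1.19) in RP and 1.195-fold (1.05 to 1.37) in 377P. Adamts15, another versican-cleaving enzyme, was likewise shared, with 17.1 CPM in the perivascular cells of RP and 14.0 CPM in those of 377P, against 16.5 CPM in the fibroblasts of RP and 13.6 CPM in those of 377P. Adamts20, known in mice for its part in the colonisation of the skin by pigment cells, stood at 64.8 CPM (44.0 to 91.99) in Schwann cells of RP and 69.0 CPM (44.2 to 103) in those of 377P, from 31 UMIs in RP and 24 UMIs in 377P.

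The sub-gates within fibroblasts and perivascular cells separated members that the classes showed together. Fibroblast gates were universal (Pi16, Dpp4, Sema3c, Cd248, Ly6c1), ligament (Postn, Aspn, Tnn, Scx, Tnmd) and inflammatory (Ptx3, Ccl2, Mmp3, Cxcl1, Il6). Adamts5 was higher in universal than in ligament fibroblasts, by 2.14-fold (1.82 to 2.52) in RP and 1.89-fold (1.63 to 2.21) in 377P. Adamts1 was higher in inflammatory than in universal fibroblasts, by 1.47-fold (1.38 to 1.57) in RP and 1.42-fold (1.33 to 1.51) in 377P. Adamts4 was higher in inflammatory than in universal fibroblasts by 2.51-fold (2.08 to 3.04) in RP and 2.85-fold (2.31 to 3.53) in 377P. Its ligament-gate level was also above the universal level, by 2.01-fold (1.60 to 2.52) in RP and 3.19-fold (2.53 to 4.03) in 377P.

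The procollagen N-proteinases, which remove the amino-terminal propeptides of fibrillar collagens, were highest in fibroblasts (Adamts2, Adamts3) or perivascular cells (Adamts14) in both libraries. Adamts2 stood at 138 CPM (133 to 143) in fibroblasts of RP and 166 CPM (161 to 172) in those of 377P, and at 127 CPM in perivascular cells of RP and 152 CPM in those of 377P. Blood endothelial cells had 5.41 CPM in RP and 7.72 CPM in 377P. Among perivascular cells it was higher in the pericyte gate than in the smooth muscle gate, by 2.37-fold (1.92 to 2.91) in RP and 2.11-fold (1.65 to 2.68) in 377P, and among fibroblasts it was higher in the ligament gate than in the universal gate, by 1.46-fold (1.31 to 1.64) in RP and 1.42-fold (1.27 to 1.58) in 377P. Adamts3, which acts on procollagens and on vascular endothelial growth factor C, was a fibroblast gene, with 32.2 CPM in RP and 20.9 CPM in 377P. Adamts14 was highest in perivascular cells, at 13.0 CPM in RP and 9.97 CPM in 377P.

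**Figure D3:**
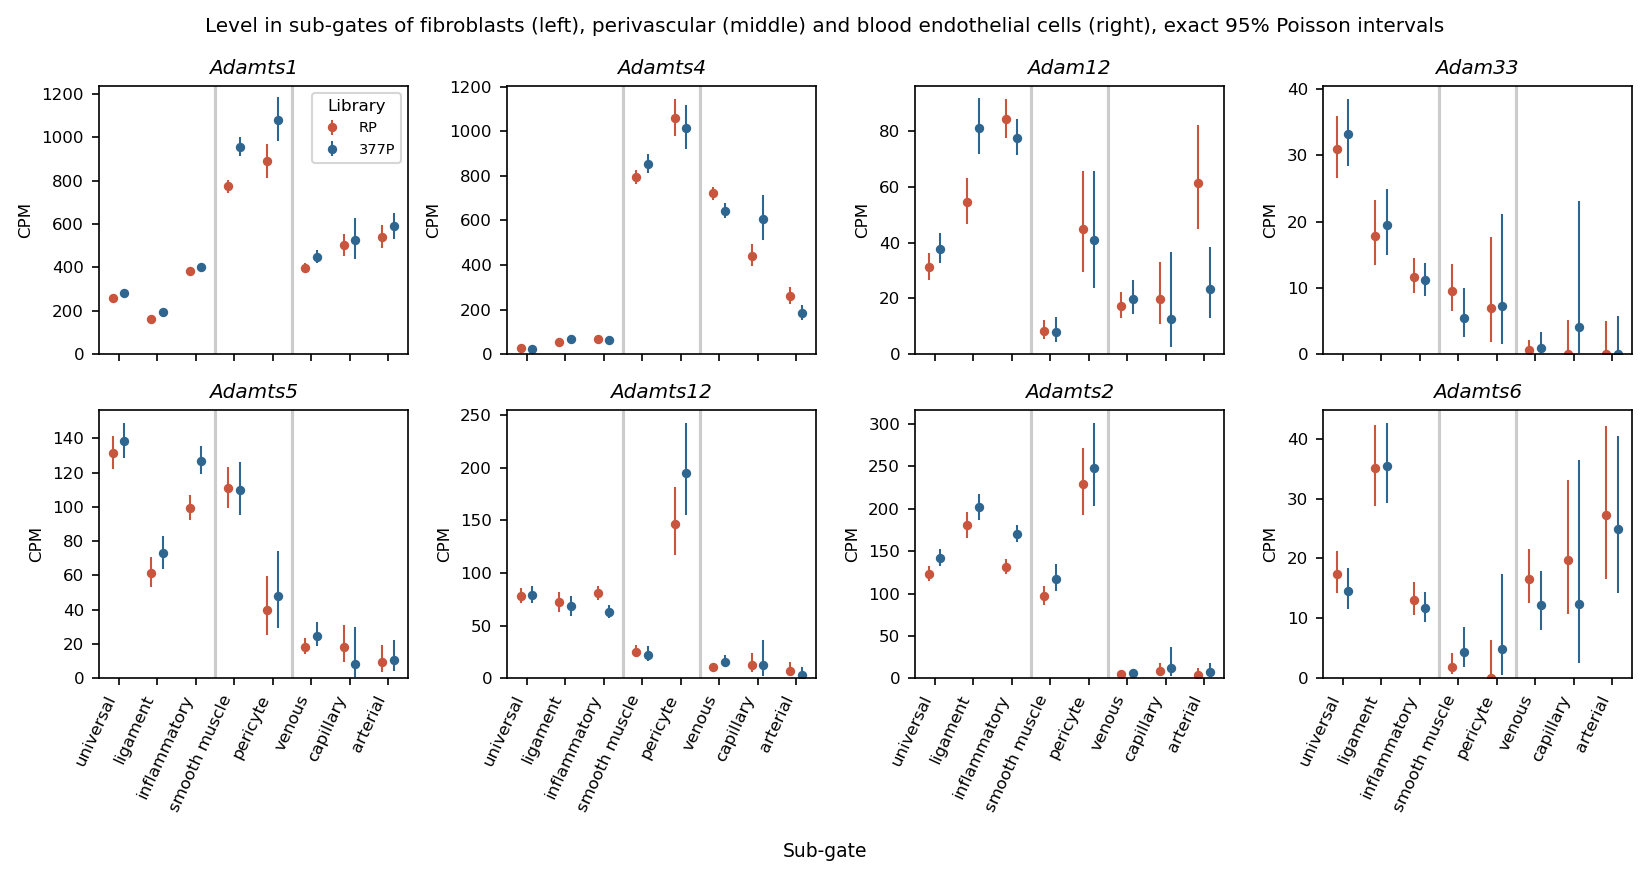
Level (CPM) of 8 members in sub-gates of fibroblasts (universal, ligament, inflammatory), perivascular cells (smooth muscle, pericyte) and blood endothelial cells (venous, capillary, arterial), RP in red and 377P in blue, with exact 95% Poisson intervals. Adam12 and Adam33 run in opposite directions between universal and inflammatory fibroblasts, and Adamts12 and Adamts2 are higher in the pericyte than in the smooth muscle gate, in both libraries.

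Of the other 9 ADAMTS members, 3 kept the same highest class. Adamts12, which cleaves cartilage oligomeric matrix protein, had 76.1 CPM in fibroblasts of RP and 69.9 CPM in those of 377P. Its pericyte level was 147 CPM in RP and 195 CPM in 377P, which was 5.82-fold (4.24 to 8.01) the smooth muscle level in RP and 8.62-fold (5.87 to 12.8) in 377P. Schwann cells had 37.6 CPM from 18 UMIs in RP and 94.9 CPM from 33 UMIs in 377P, so the highest class of Adamts12 differed between the libraries. Adamts10, which binds fibrillin microfibrils, was highest in fibroblasts at 20.96 CPM in RP and 17.8 CPM in 377P, a level close to that of blood endothelial cells, at 19.2 CPM in RP and 16.9 CPM in 377P. Adamts6, the close homologue of Adamts10, was highest in lymphocytes. It had 92.6 CPM (74.2 to 114) in B cells of RP and 69.6 CPM (61.5 to 78.4) in those of 377P, and 80.5 CPM (67.4 to 95.4) in T or NK cells of RP and 77.3 CPM (70.1 to 85.1) in those of 377P. Which of the 2 classes was higher differed between libraries and the interval of their ratio included 1 in both. Among fibroblasts Adamts6 was higher in the ligament gate than in the universal gate, by 2.01-fold (1.52 to 2.66) in RP and 2.42-fold (1.79 to 3.29) in 377P.

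Adamts18 was highest in blood endothelial cells, at 5.41 CPM from 31 UMIs in RP and 2.57 CPM from 9 UMIs in 377P. Adamts17, whose human gene is tied to eye and short-stature disorders of the microfibril system, had 24.6 CPM in fibroblasts of RP and 14.6 CPM in those of 377P. Fibroblasts were its highest class in 377P, but in RP Schwann cells were, at 33.45 CPM. Adamts7 (overlapping Tbc1d2b on the other strand), Adamts13, the enzyme that trims von Willebrand factor, and Adamts16 had at most 10.5 CPM in any class of RP and 8.95 CPM in any class of 377P. Plasma ADAMTS13 is known to come largely from stellate cells of the liver.

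Of the 9 catalytic ADAMs known from many tissues, 7 kept the same highest class. Adam10, which sheds Notch receptors and cadherins, did not. It had 321 CPM (288 to 357) in lymphatic endothelial cells of RP and 232 CPM (202 to 265) in those of 377P, 297 CPM in Schwann cells of RP and 259 CPM in those of 377P, and 222 CPM in blood endothelial cells of RP and 224 CPM in those of 377P. The top pair of classes stood in opposite order in the libraries, with ratios of 1.08-fold (0.887 to 1.32) in RP and 1.12-fold (0.863 to 1.44) in 377P; both intervals include 1. Its lowest class was perivascular in RP, at 54.5 CPM, and neutrophil in 377P, at 41.8 CPM. Adam17, which releases tumour necrosis factor and ligands of the epidermal growth factor receptor (overlapping Iah1 on the other strand), was highest in neutrophils, with 204 CPM (163 to 252) in RP and 239 CPM (189 to 297) in 377P. Macrophages had 178 CPM in RP and 177 CPM in 377P.

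Adam8, a sheddase of leukocytes, was more restricted. It had 202 CPM (161 to 250) in neutrophils of RP and 239 CPM (189 to 297) in those of 377P, and 50.2 CPM in macrophages of RP and 66.7 CPM in those of 377P. The ratio of these classes was 4.02-fold (3.03 to 5.29) in RP and 3.58-fold (2.67 to 4.78) in 377P. Keratinocytes came next, at 23.9 CPM in RP and 26.1 CPM in 377P, which was 10.4-fold (7.80 to 14.1) the fibroblast level in RP and 8.35-fold (6.51 to 10.9) in 377P. Adam15, a disintegrin of vessel walls and epithelia, was highest in blood endothelial cells at 181 CPM in RP and 165 CPM in 377P, followed by macrophages at 92.4 CPM in RP and 92.7 CPM in 377P. In keratinocytes its suprabasal-gate level was 2.40-fold (2.07 to 2.78) the basal-gate level in RP and 2.69-fold (2.24 to 3.20) in 377P. The breadth of the basal gate, given for Adamts1, applies here too. Adam9, a widely expressed sheddase, was highest in lymphatic endothelial cells, at 146 CPM in RP and 145 CPM in 377P.

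Adam12, a protease of mesenchymal cells that cleaves insulin-like growth factor binding proteins, had 55.1 CPM in fibroblasts of RP and 62.3 CPM in those of 377P. It was higher in inflammatory than in universal fibroblasts, by 2.71-fold (2.28 to 3.22) in RP and 2.05-fold (1.74 to 2.43) in 377P, and higher in ligament than in universal fibroblasts, by 1.75-fold (1.41 to 2.17) in RP and 2.15-fold (1.78 to 2.60) in 377P. Adam33, whose human gene is a susceptibility gene for asthma, ran the other way: it was 2.67-fold (2.04 to 3.53) higher in universal than in inflammatory fibroblasts in RP and 2.98-fold (2.27 to 3.93) in 377P, from 31.0 CPM and 11.6 CPM in RP and 33.2 CPM and 11.1 CPM in 377P. Adam12 overlaps A130023I24Rik on the same strand, so its counts are uncertain. The class next to fibroblasts for Adam12 was lymphatic endothelial, at 35.7 CPM in RP and 49.8 CPM in 377P. The fibroblast level was 1.55-fold (1.12 to 2.20) that level in RP. In 377P it was 1.25-fold (0.932 to 1.72), an interval that includes 1. Adam12 also appeared in T or NK cells, at 31.5 CPM in RP and 22.8 CPM in 377P, against 1.06 CPM from 1 UMI in B cells of RP and 3.36 CPM in those of 377P. Adam19, which processes neuregulins, had 51.5 CPM in T or NK cells of RP and 30.1 CPM in those of 377P. These were its highest class in RP only. In 377P fibroblasts were highest at 32.9 CPM, followed by Schwann cells at 31.6 CPM.

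Adam28, whose human product is known from lymphocytes and lung epithelium, was highest in gland cells. Gland cells had 92.3 CPM (88.5 to 96.1) in RP and 66.3 CPM (57.7 to 75.8) in 377P, while B cells had 6.39 CPM from 6 UMIs in RP and 1.03 CPM from 4 UMIs in 377P. The gland level came mostly from the cluster led by secretoglobin genes and Smgc (cluster 16), with 124 CPM (119 to 129) in RP and 108 CPM (94.8 to 123) in 377P. The cluster led by the Dcpp genes (cluster 15) had 9.24 CPM (6.66 to 12.5) in RP and 7.46 CPM (2.74 to 16.2) in 377P. Neuronal cells, too few to compare, had 93.3 CPM (54.3 to 149) from 17 UMIs in 19 cells of RP, close to the gland level. In 377P they had 18.4 CPM (9.53 to 32.2) from 12 UMIs in 62 cells.

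The ADAMs without the full set of catalytic codons fell into neural members and members known from testis and epididymis. Adam23, a partner of the secreted LGI proteins at axons, had 130 CPM (99.4 to 166) in Schwann cells of RP and 161 CPM (122 to 209) in those of 377P, from 62 UMIs in RP and 56 UMIs in 377P. This was 12.3-fold (9.16 to 16.4) the next of the 11 compared classes, fibroblasts, in RP and 25.0-fold (17.98 to 34.4) in 377P. Of the classes too small to compare, dendritic cells of RP stood above Schwann cells, at 233 CPM (124 to 399) from 13 UMIs in 8 cells. In 377P dendritic cells had 42.7 CPM from 7 UMIs in 12 cells. Neuronal cells had 54.9 CPM from 10 UMIs in RP and 29.2 CPM from 19 UMIs in 377P. Adam11, another neural ADAM, had 27.2 CPM (14.5 to 46.5) in Schwann cells of RP and 40.2 CPM (22.0 to 67.5) in those of 377P. Adam22, the LGI receptor of nerve, had 23.0 CPM in Schwann cells of RP from 11 UMIs and 8.62 CPM in those of 377P from 3 UMIs, and its highest class differed between libraries. In perivascular cells Adam22 stood at 12.3 CPM in RP and 18.4 CPM in 377P, and it was higher in the pericyte than in the smooth muscle gate, by 3.95-fold (2.07 to 7.43) in RP and 2.68-fold (1.31 to 5.29) in 377P.

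The 9 members known from the male reproductive tract had 21 to 1332 UMIs in total, and 4 of them kept the same highest class. Adam1a, Adam21 and Adam30 among them carry the catalytic codons. Adam30 had 10.9 CPM from 31 UMIs in macrophages of RP and 4.34 CPM from 8 UMIs in those of 377P, and its highest class differed between libraries. Adam32, the one with most UMIs, was found at 11.5 CPM in fibroblasts of RP and 6.67 CPM in those of 377P and had no leading class shared by the libraries. Adam1a overlaps Mapkapk5 and Adam4 overlaps Cox16 on the same strand, so their counts are uncertain. Adam2, Adam3, Adam4, Adam5, Adam7, Adam21 and Adam1a reached at most 4.80 CPM in any class of RP and 5.97 CPM in any class of 377P.

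Between the libraries, few members were 2-fold apart within a class. Over the 8 classes, 140 pairs of member and class had at least 50 UMIs. Of these, 10 were at least 2-fold higher in RP, against 3.03% of all measured gene and class pairs, and 1 was at least 2-fold higher in 377P, against 1.88%. By class, the number of members higher in RP was 3 of 29 in fibroblasts (2.43% of all genes), 3 of 26 in keratinocytes (5.65%), 1 of 18 in blood endothelial cells (1.76%), 1 of 19 in gland cells (2.96%), 1 of 7 in B cells (1.98%), 1 of 9 in macrophages (2.98%), 0 of 20 in perivascular cells (1.92%) and 0 of 12 in T or NK cells (3.21%). The number higher in 377P was 1 of 19 in gland cells (3.75% of all genes), and 0 in fibroblasts (1.9%), keratinocytes (1.56%), blood endothelial cells (1.74%), B cells (2.04%), macrophages (1.11%), perivascular cells (0.903%) and T or NK cells (1.48%). The median log2 ratio of RP over 377P over members was 0.51 in keratinocytes, where that of all genes was 0.02, and 0.45 in T or NK cells, where that of all genes was 0.01. In fibroblasts it was 0.10 and in perivascular cells -0.03, beside -0.02 and -0.04 for all genes. In gland cells it was 0.24 and in B cells 0.21, beside -0.0003 and -0.03. In blood endothelial cells it was 0.01 and in macrophages -0.01, beside -0.04 and -0.06. These medians include members at under 20% of their highest class level, such as Adamts9 and Adamts3 in keratinocytes. The part of free RNA in the medians was not tested.

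Of the 11 pairs, 4 stood at 20% or more of the gene's highest class level in the library where they were higher. The other 7 were below that guard against free RNA: Adam28 in fibroblasts, Adamts3 and Adamts9 in keratinocytes, Adamts4 in gland cells and Adamts9 in B cells and macrophages, higher in RP, and Adam8 in gland cells, higher in 377P. Adamts9, for example, had 31.6 CPM in macrophages of RP and 9.22 CPM in those of 377P, where blood endothelial cells had 1893 CPM in RP and 1840 CPM in 377P. Blood endothelial cells were 6.60% of the kept cells of RP and 3.09% of those of 377P, and with the estimated free RNA subtracted the pairs at least 2-fold higher in RP numbered 7 in place of 10.

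**Figure D4:**
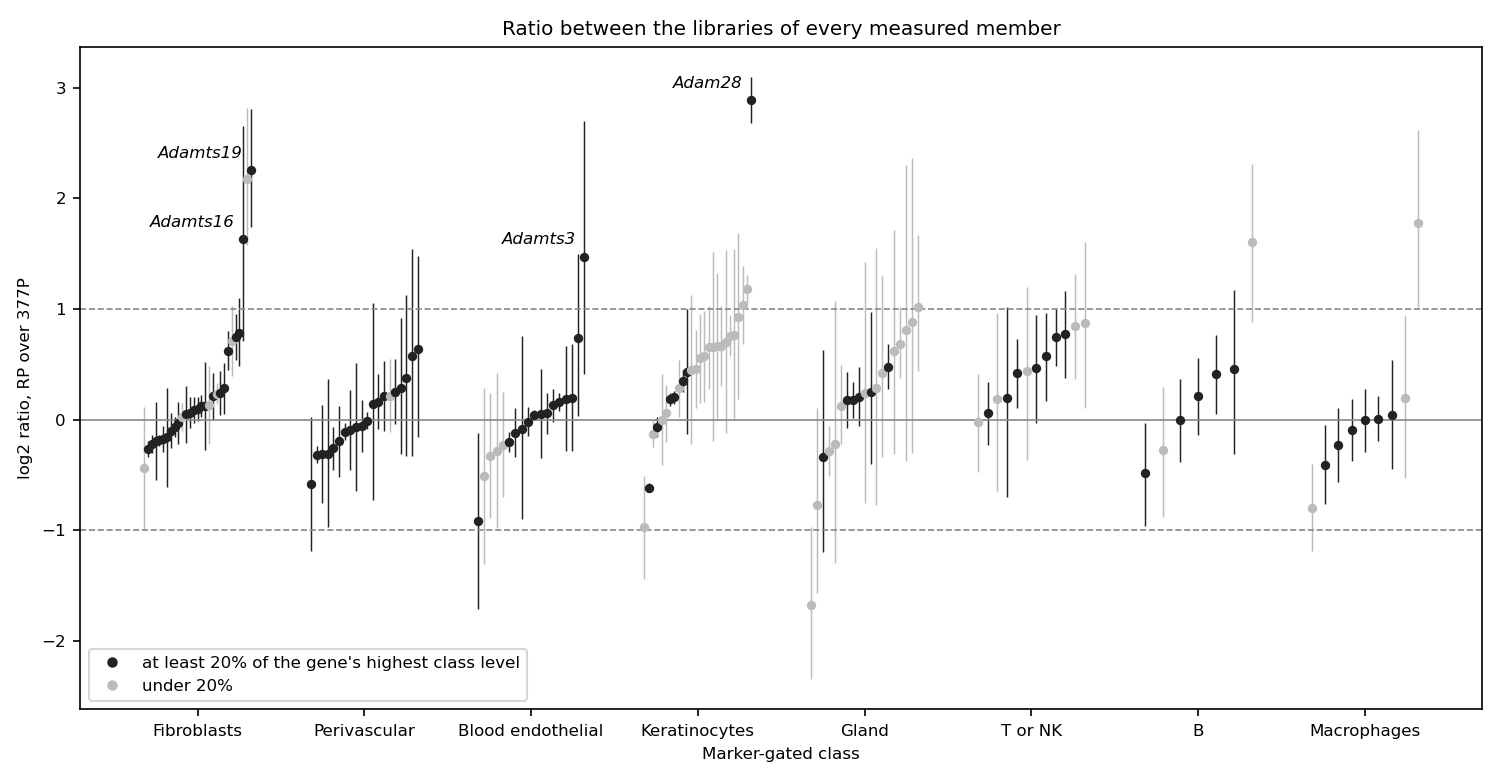
Log2 ratio of RP over 377P of every member with at least 50 UMIs in a class, sorted within each of 8 classes, with exact 95% intervals as bars. Black points stand at 20% or more of the gene's highest class level, grey points below it, and dashed lines mark 2-fold. The 4 named black points lie above the upper line, and no black point lies below the lower line.

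Adam28 differed most. It had 29.5 CPM (27.9 to 31.3) in keratinocytes of RP and 3.998 CPM (3.49 to 4.55) in those of 377P, a 7.39-fold difference (6.40 to 8.55). At least 1 Adam28 UMI was found in 13.4% of keratinocytes of RP (12.3 to 14.6) and 3.85% of those of 377P (3.25 to 4.54), at median depths of 10010 UMIs in RP and 14430 UMIs in 377P. Fibroblasts gave 3.26% in RP and 0.667% in 377P, at median depths of 4797 UMIs in RP and 6623 UMIs in 377P. The gland markers other than keratins were together 6.08-fold higher in keratinocytes of RP than in those of 377P, at 10103 CPM in RP and 1662 CPM in 377P. With the estimated free RNA subtracted, the log2 ratio of Adam28 was 2.93, beside 2.88 without subtraction.

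The keratinocytes of the libraries fell in different clusters: 1879 and 951 of the 3557 cells of RP were in clusters 30 and 27, and 2231 and 887 of the 3582 cells of 377P in clusters 7 and 1. Cluster 27, led by Sprr1a, Sptssb, Cyp2a5 and Spink5, held 998 of the 1191 Adam28 UMIs of the RP keratinocytes, or 83.8%. It held 1044 cells of RP and 28 of 377P, with 84.4 CPM (79.3 to 89.6) and 41.4 CPM (27.1 to 60.7). In cluster 18, led by secretoglobin genes and Amelx, Adam28 stood at 22.9 CPM (18.7 to 27.6) in 250 cells of RP and 26.3 CPM (22.5 to 30.5) in 440 cells of 377P, intervals that overlap. The level was 4.33 CPM in cluster 30 of RP, led by Pappa, Hpgd and Cenpf, and 0.820 CPM in cluster 7 of 377P, led by Pappa and Col17a1. Of the RP keratinocytes, 101 lay in cluster 15, which is led by gland genes. Cluster 15 was not among the clusters that held the most Adam28 UMIs of the RP keratinocytes. Those were clusters 27, 30, 28, 2 and 18, with 998, 85, 38, 34 and 32 UMIs. With cells named by cluster in place of the gate, the log2 ratio was 2.73.

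Adamts19, a secreted protease with no well-known substrate, had 8.48 CPM (7.30 to 9.79) in fibroblasts of RP and 1.78 CPM (1.25 to 2.45) in those of 377P, a 4.77-fold difference (3.34 to 6.99) from 184 UMIs in RP and 37 UMIs in 377P. A cluster of 92 cells of RP and 0 of 377P (cluster 32), led by Dok6, Plppr1, Adamts19 and Rspo4, had 257 CPM (224 to 292). The fibroblast gate took in 44 of its cells, which held 122 of the 184 UMIs, or 66.3%, and 32 of these 44 cells had at least 1 UMI. Adamts19 itself is among the genes that define that cluster, so its level there describes the cluster. Without the cluster the log2 ratio was 0.72, beside 2.25 with it, and the 2-fold call was lost. Of the gated fibroblasts, cluster 20 held 2951 cells of RP and 10 of 377P, and cluster 6 held 5 of RP and 1998 of 377P. These clusters had 3.26 CPM (2.46 to 4.24) in cluster 20, with 3148 cells of RP, and 2.13 CPM (1.48 to 2.98) in cluster 6, with 2072 cells of 377P.

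**Figure D5:**
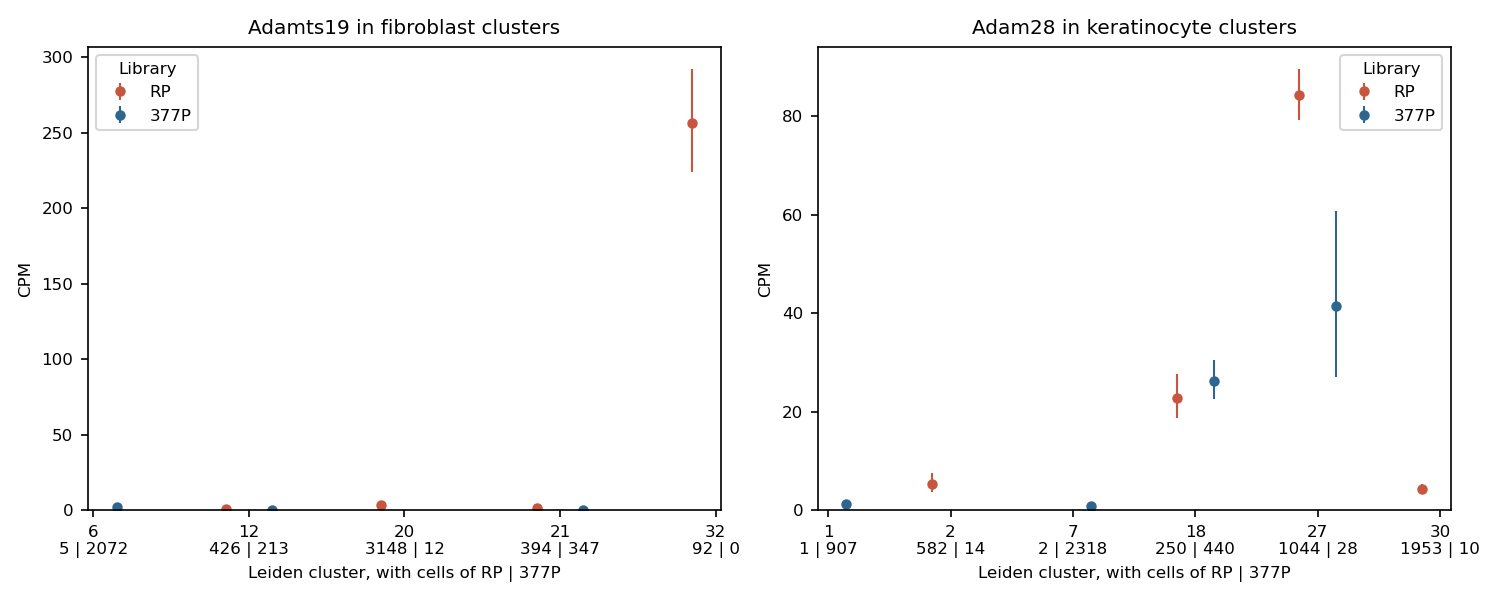
Level (CPM) of Adamts19 in fibroblast clusters (left) and of Adam28 in keratinocyte clusters (right), RP in red and 377P in blue, with exact 95% Poisson intervals and the cells of each library under the cluster number. Points are drawn where a library has at least 20 cells. Among the clusters drawn, those with the highest level of each gene, 32 and 27, hold mostly cells of RP.

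Adamts16, which is known to cleave fibronectin, had 1.94 CPM (1.39 to 2.62) in fibroblasts of RP and 0.624 CPM (0.332 to 1.07) in those of 377P, a 3.10-fold difference (1.63 to 6.29) from 42 UMIs in RP and 13 UMIs in 377P. In cells thinned to 1000 UMIs its log2 ratio was 0.69, below 2-fold, from 7 UMIs in RP and 3 UMIs in 377P. Of its 42 UMIs in RP, 17 came from the 345 gated cells of cluster 21, led by Ibsp, Fmod and Tnn. Adamts3 in blood endothelial cells had 7.15 CPM from 41 UMIs in RP and 2.57 CPM from 9 UMIs in 377P, a 2.78-fold difference (1.33 to 6.50). The 41 UMIs were in 20 of 1103 cells of RP, and the 9 UMIs in 9 of 449 cells of 377P, so the shares of cells, 1.81% (1.11 to 2.79) and 2.005% (0.921 to 3.77), had overlapping intervals.

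Of the members with the most UMIs, Adamts1 was lower in the keratinocytes of RP, at 182 CPM in RP and 279 CPM in 377P, or 1.53-fold higher in 377P (1.49 to 1.57), and was also higher in 377P in perivascular cells (1.25-fold, 1.18 to 1.31), blood endothelial cells (1.15-fold, 1.08 to 1.22) and fibroblasts (1.14-fold, 1.10 to 1.18). The gated keratinocytes of cluster 30 had 256 CPM in RP, and those of cluster 7 had 333 CPM in 377P. Adam17 in T or NK cells had 118 CPM in RP and 70.5 CPM in 377P, a 1.67-fold difference (1.40 to 1.99). The T or NK clusters differed between the libraries: cluster 31 held 347 cells of RP and 2 of 377P, cluster 10 held 72 of RP and 1445 of 377P, and cluster 8 held 287 of RP and 468 of 377P. The gate marker Trdc, a gamma-delta T cell receptor gene, had 279.7 CPM in the T or NK cells of RP and 73.3 CPM in those of 377P, and the part of this mix in the ratios of the class was not tested. The ratio of Adamts9 in blood endothelial cells was 1.03-fold (0.997 to 1.06), and that of Adam10 there 0.988-fold (0.903 to 1.08).

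Inhibitors, partners and substrates of the family were taken from a list of 66 genes, giving 352 pairs of gene and class with at least 50 UMIs. Of these, 21 were at least 2-fold higher in RP and 9 at least 2-fold higher in 377P, beside 3.03% and 1.88% of all measured pairs. In keratinocytes, 11 of 59 were higher in RP (5.65% of all genes in that class) and 2 higher in 377P (1.56%). Past the 20% guard, 3 shed growth factors were higher in keratinocytes of RP. Ereg had 22.9 CPM in RP and 4.28 CPM in 377P (5.36-fold, 4.65 to 6.20). Areg had 121 CPM in RP and 37.1 CPM in 377P (3.26-fold, 3.09 to 3.43), and Btc 5.93 CPM in RP and 1.66 CPM in 377P (3.56-fold, 2.80 to 4.57). All 3 are ligands of the epidermal growth factor receptor that ADAM17 or ADAM10 can release. The keratinocytes of the libraries lay in different clusters, as given for Adam28, and the part of this in the 3 ratios was not tested. Areg was also higher in T or NK cells of RP, at 366 CPM against 70.2 CPM in 377P (5.22-fold, 4.59 to 5.95), where Fbn2, a fibrillin, was lower in RP, at 3.03 CPM from 5 UMIs against 22.0 CPM from 120 UMIs in 377P. The different T or NK clusters of the libraries, given above, apply to both genes.

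Among the inhibitors, Timp4, a tissue inhibitor of metalloproteinases, was higher in RP in perivascular cells (49.0 CPM against 23.9 CPM in 377P, 2.05-fold, 1.53 to 2.78) and in blood endothelial cells (15.9 CPM against 3.15 CPM in 377P, 5.05-fold, 2.69 to 10.5). A2m, a plasma-type trap for proteases, was 4.86-fold (2.33 to 11.4) higher in fibroblasts of 377P, from 9 UMIs in RP and 42 UMIs in 377P. Comp, a substrate of ADAMTS7 and ADAMTS12, had 4.61 CPM in fibroblasts of RP and 25.0 CPM in those of 377P, 5.42-fold higher in 377P (4.37 to 6.78). For both genes the fibroblasts lay in nearly separate clusters, as given for Adamts19. Tspan33, a tetraspanin partner of ADAM10, was 3.24-fold (1.69 to 5.95) higher in gland cells of 377P, from 38 UMIs in RP and 16 UMIs in 377P, and Rhbdf2, which carries ADAM17 to the cell surface, was 2.06-fold (1.08 to 3.79) higher in B cells of RP, from 17 UMIs in RP and 34 UMIs in 377P.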

How the data were processed

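Per the file headers, the deposited matrices hold raw UMI counts per gene and barcode made with Cell Ranger 7.0.1. The submitters' processing notes name Cell Ranger, STAR and mm10. How intronic reads and strand were treated, and which gene annotation was used, was not stated there.

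Cells with under 200 genes or over 20% mitochondrial UMIs were removed, which was 3 and 819 barcodes in RP and 0 and 115 in 377P. Scrublet in Scanpy 1.11.5, with 12% doublets expected, removed 569 barcodes of RP (3.29%) and 836 of 377P (5.45%). A cell entered a class when its marker score, above what free RNA would give, led the next class. Leiden clusters (igraph 0.11.9, 3000 variable genes, 40 components, 20 neighbours, resolution 1) served as the alternative and to locate cells. UMIs were summed per class and library and scaled to 1000000 UMIs of the class. A class with 0 UMIs has a floor of 3 counts. Ratios between libraries needed 50 UMIs in the class over both libraries, and the interval code was tested on simulated data. SciPy 1.17.1, NumPy 2.4.6, pandas 2.3.3 and matplotlib 3.10.9 were used.

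In the account of levels, any member with at least 20 UMIs could be named. Between libraries, members and partners were named when 2-fold apart and at 20% or more of their highest class level, partners at most 4 a class, and otherwise the members with the most UMIs. Members, lists and gates were chosen with earlier results of these data known. Coding sequences and coordinates are from GENCODE vM21 (GRCm38). Of the 15 alternatives, the closing section names only some. The others were at most 10% mitochondrial UMIs, at least 1000 UMIs per cell, free RNA subtracted and median-ratio scaling. Limits of at least 100 or at least 1 UMI in total, and 2 times the next class, were also run. UMIs from 1 library are not replicates, so intervals cover counting error only.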

Additional observations from a re-analysis of the deposited data

Results flagged for a closer look

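The following values came from classes with too few cells for the comparisons, and, except where said, stood above the gene's level in all 11 compared classes of the same library. Adam22 had 110 CPM in 19 neuronal cells of RP (67.0 to 169) and 92.2 CPM in 62 neuronal cells of 377P (70.4 to 119). Adam19 had 126 CPM in 8 dendritic cells of RP (50.5 to 259), from 7 UMIs, and 122 CPM in 12 dendritic cells of 377P (74.6 to 189), from 20 UMIs. Adam19 had 32.9 CPM in 19 neuronal cells of RP (12.1 to 71.6), below the highest compared class of RP, and 56.9 CPM in 62 neuronal cells of 377P (40.04 to 78.4).

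Adam19 moved in opposite directions in a pair of classes. Its log2 ratio of RP over 377P was -0.913 in blood endothelial cells, from 4.71 CPM in RP and 8.87 CPM in 377P, and 0.773 in T or NK cells, from 51.5 CPM in RP and 30.1 CPM in 377P. The difference between the classes was not tested.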

How the results depend on the processing

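No paired analysis was possible because each title has 1 library. The count of pairs of member and class at least 2-fold higher in RP was 10. It became 4 in cells thinned to 1000 UMIs, 23 with at least 20 UMIs in the class and 32 at 1.5-fold. The count higher in 377P was 1, and became 2 with Leiden classes, 3 with doublets kept, 0 when thinned, 2 with at least 20 UMIs, 0 with at least 100 UMIs, 6 at 1.5-fold and 2 without the cluster found only in RP, an alternative chosen after seeing the data. For pairs of partner and class, the 21 higher in RP became 9 when thinned, 34 with at least 20 UMIs, 13 with at least 100 UMIs and 51 at 1.5-fold. The 9 higher in 377P became 19, 4 and 30 with at least 20 UMIs, at least 100 UMIs and 1.5-fold. Shares of all genes at these other settings are not given, so the counts cannot be set against them. Class-restricted members fell to 4 of 8 at 5 times the next class. Other thresholds and fewer UMIs change these counts by construction; for Leiden classes and doublets the cause was not tested. For 12 member ratios, 96 pairs of ratio and setting were run; Adam17 in T or NK cells and the partner ratios were not among them. Of the 96, 95 kept their sign, and Adamts3 in fibroblasts went to -0.02 when thinned, beside 0.62. Of the 26 members with the same highest class, 20 kept it when thinned. Thinning left out 1105 cells of RP and 233 of 377P as too shallow.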

Other observations

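Adam8 was also measured in small clusters whose cells were mostly without a class. In cluster 19, led by Cdhr3, Ttc29 and Sntn, it stood at 191 CPM (129 to 272) in 27 cells of RP and 301 CPM (193 to 448) in 5 cells of 377P. In cluster 28, led by Clca3b and Duoxa2, it had 91.97 CPM (69.7 to 119) in 93 cells of RP, and Adam28 had 158 CPM (128 to 193) there.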
